A study of Mus musculus with 6 samples.

Results

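Genes that encode plasma proteins of the fetal liver, 10 in all, were followed in RNA of 13.5 dpc mouse ovaries. They were *Alb*, *Afp*, *Ttr*, *Trf*, *Ahsg*, *Apoa1*, *Apoa2*, *Apob*, *Apoh* and *Serpina1a*, chosen by symbol, and the 10 made up 10 of the 48709 genes in the count table. They were proposed because their levels differed between the third pool of each group and the other pools, so that this difference is given as a description without a test. The exposure contrast was not used in the choice and was tested.

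The series held 6 libraries, 3 of control ovaries and 3 of ovaries exposed in utero to acetaminophen plus ibuprofen (APAP+IBU). All came from embryos of wild type CD1 dams treated by gavage from 10.5 to 13.5 dpc, controls with the ethanol vehicle and exposed dams with 30 mg per kg per day of APAP, an analgesic, and 15 mg per kg per day of ibuprofen, a cyclooxygenase inhibitor. The titles of the exposed libraries name IBU alone, whereas their exposure label and protocol name both drugs. According to the methods, gonads of several embryos from more than one dam were pooled, so each library is a pool of animals and the level in a single gonad was not measured. Libraries are named here by group and number (control 1 to 3, APAP+IBU 1 to 3), and the labels do not say that same-numbered pools of the 2 groups belong together.

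The liver begins to make plasma proteins early in embryonic life, first in hepatoblasts and later in hepatocytes. Alpha-fetoprotein (AFP) is the main plasma protein of the fetus and is replaced by albumin (ALB) as the liver matures, and the yolk sac endoderm is another fetal source of AFP, transferrin and apolipoproteins. The liver is also the main site of red cell formation in mid-gestation mice, so hepatoblasts and erythroid precursors lie side by side there. Hepatocyte nuclear factors such as HNF1 and HNF4 and the C/EBP and FOXA families act on the promoters of many of these genes.

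The RefSeq promoter sequences on GRCm38.p6 run from 250 bases before to 50 bases after each gene's start, and 8 of the 10 genes were examined in them (not *Ttr* and *Trf*). Windows of 3 genes held the HNF1 core GTTAAT on either strand (ATTAAC on the reverse). Of the 10 genes, *Alb* and *Afp* carried most of the reads described here and *Serpina1a* the fewest. The windows are shown because they held this core. They are written 5′ to 3′ on the strand of the gene, with the first match to the HNF1 core in capitals.
Alb: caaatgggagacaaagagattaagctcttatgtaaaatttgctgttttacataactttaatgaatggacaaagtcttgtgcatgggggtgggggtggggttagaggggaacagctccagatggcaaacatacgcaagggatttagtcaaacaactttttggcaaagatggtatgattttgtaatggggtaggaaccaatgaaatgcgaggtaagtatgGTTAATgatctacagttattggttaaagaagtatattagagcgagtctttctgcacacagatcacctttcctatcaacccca
Afp: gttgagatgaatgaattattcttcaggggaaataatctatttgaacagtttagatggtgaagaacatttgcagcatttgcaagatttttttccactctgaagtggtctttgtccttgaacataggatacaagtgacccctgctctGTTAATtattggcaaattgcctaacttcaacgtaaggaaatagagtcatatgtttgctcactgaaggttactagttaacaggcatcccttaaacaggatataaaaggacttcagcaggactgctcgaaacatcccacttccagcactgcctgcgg
Serpina1a: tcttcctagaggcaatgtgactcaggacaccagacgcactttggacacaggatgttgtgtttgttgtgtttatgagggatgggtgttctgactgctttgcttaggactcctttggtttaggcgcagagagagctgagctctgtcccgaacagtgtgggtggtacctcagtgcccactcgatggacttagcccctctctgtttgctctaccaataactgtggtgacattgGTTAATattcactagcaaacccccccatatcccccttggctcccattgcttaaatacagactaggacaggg
These windows lie at chr5:90460620-90460919 (+) for *Alb*, chr5:90490464-90490763 (+) for *Afp* and chr12:103863570-103863869 (-) for *Serpina1a*. The match began at position -32 from the start for *Alb*, -105 for *Afp* and -21 for *Serpina1a*. The HNF1 core occurred in 7.1% of 32851 windows of all genes. The C/EBP motif TTGCNNAA (reverse TTNNGCAA) was found in windows of 6 of the 8 genes, *Alb*, *Afp*, *Ahsg*, *Apoa2*, *Apob* and *Serpina1a*, and in 10.8% of all windows. The FOXA motif TGTTTAC (reverse GTAAACA) was found for *Apoa2* and *Apoh* and in 3.65% of all windows, and the HNF4 motif CAAAGTCCA (reverse TGGACTTTG) for 0 of the 8 and in 0.47% of all windows. A gene was counted when any of its windows held the motif, whereas the percentages count single windows, so these measures are not alike. A match describes the letters of the window only.

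Total counts ran from 37811968 to 48954631 per library, and libraries of one group differed from each other by more than sampling noise. Germ cell and gonad genes checked the tissue label. *Dazl*, a germ cell RNA-binding protein, lay between 368.0 and 591.3 CPM, and *Wt1*, a transcription factor of gonad somatic cells, between 250.8 and 301.1 CPM. *Foxl2*, which marks pre-granulosa cells, ranged from 0.944 CPM in control 3 to 8.15 CPM in control 1. *Sox9*, a Sertoli cell factor, lay between 5.36 and 10.6 CPM, and *Insl3*, a Leydig cell hormone, was under 1 CPM in all 6. The 7 fetal testis genes summed to 42.1, 41.8 and 22.8 CPM in the controls and to 23.0, 18.8 and 19.8 CPM after exposure, so controls 1 and 2 stood above the rest. *Amh*, a Sertoli cell hormone, had 2.49, 2.595 and 0.253 CPM in the controls and 0.768, 0.742 and 0.494 CPM after exposure. Of the 6 that were tested, edgeR called 0 for exposure at an adjusted p of 0.05, with 4 at an unadjusted p under 0.05 and a median log2 difference of -1.10, and DESeq2 called 0. Their median ratio of the third to the other pools was 0.657, and their part in the values of the plasma protein genes was not tested. Levels are given as CPM, counts scaled to a common library size with TMM normalisation.

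All 10 plasma protein genes were highest in APAP+IBU 3 and second highest in control 3, the third pools of the 2 groups. Over the whole table, both of the third pools lay above each of the other 4 libraries for 7.81% of the 20167 tested genes. Both lay at least 2-fold above each of the others for 0.783% of tested genes and for 8 of the 10 members, the exceptions being *Trf* and *Apoa1*. The rule that chose the members used this contrast, and nothing is read from these counts. All 10 members passed the expression filter, which asks for a sufficient count in 3 libraries and so could not be met through the third pools alone. In pooled tissue, more cells of a type and more RNA per cell cannot be told apart.

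**Figure D1:**
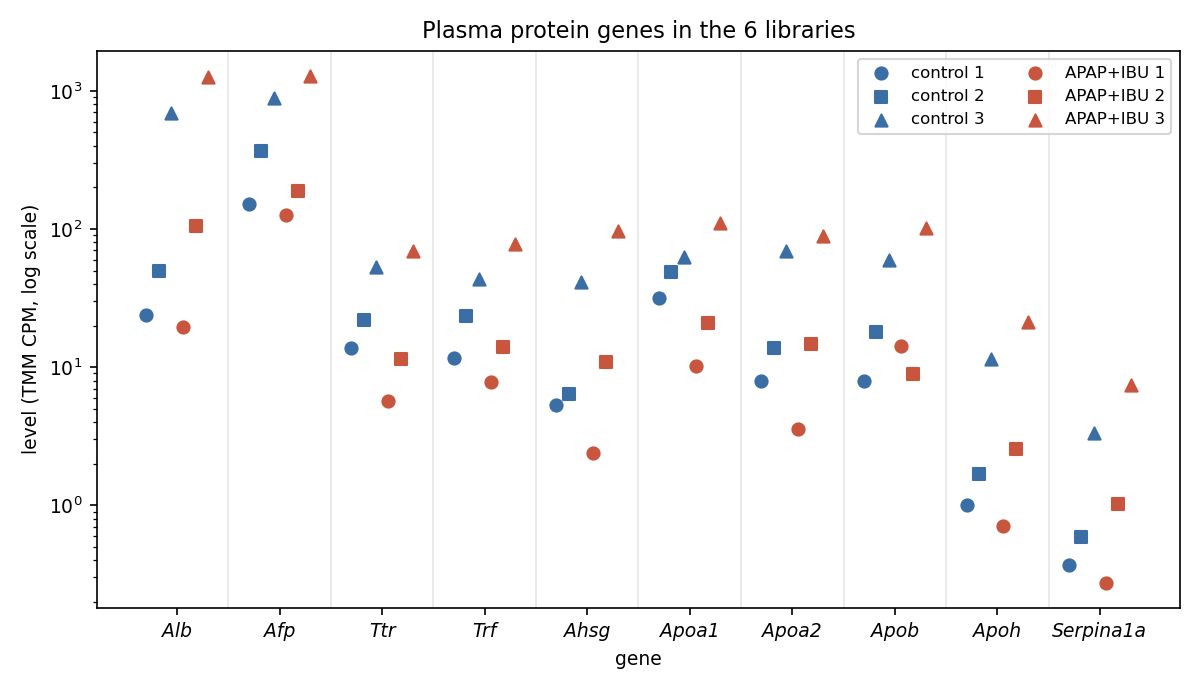
TMM-normalised CPM (log axis) of the 10 plasma protein genes in each of the 6 libraries, with colour for group and symbol shape for replicate number. The triangles of control 3 and APAP+IBU 3 are the 2 highest points for every gene, and *Alb* spans the widest range, from 19.5 to 1264 CPM.

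*Alb* (ENSMUSG00000029368, GRCm38 chr5:90460897-90476602, plus strand) encodes albumin, the main carrier protein of adult plasma. It stood at 23.7, 49.4 and 690.9 CPM in control 1, 2 and 3, and at 19.5, 104.6 and 1264 CPM in APAP+IBU 1, 2 and 3. The lower of the third pools was 6.60-fold above the highest of the other 4 libraries, and the 4 others spread over 5.37-fold among themselves. The mean of the third pools was 977.5 CPM against 49.3 ± 39.2 CPM in the others (SD, n = 4), a ratio of 19.8, which was the highest of the 10 genes.

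*Afp* (ENSMUSG00000054932, GRCm38 chr5:90490737-90508907, plus strand) lies 14.1 kb downstream of *Alb* and encodes alpha-fetoprotein. It stood at 152.5, 364.7 and 888.5 CPM in the controls and at 125.3, 186.9 and 1280.0 CPM after exposure. *Afp* had the highest counts of the 10 genes in all 6 libraries, and its ratio of the third pools to the others was 5.23. Control 2 came next after the third pools for *Afp*, whereas APAP+IBU 2 did for *Alb*, so the neighbours did not share one order of libraries.

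The transport proteins followed. *Ttr* encodes transthyretin, which carries thyroid hormone and retinol-binding protein, and had 13.8, 21.8 and 52.8 CPM in the controls and 5.65, 11.4 and 69.6 CPM in the exposed libraries. *Trf* (ENSMUSG00000032554, GRCm38 chr9:103204001-103230444, minus strand) encodes transferrin, the iron carrier, and had 11.7, 23.5 and 43.2 CPM in the controls and 7.86, 13.9 and 77.9 CPM in the exposed libraries. The ratios were 4.65 for *Ttr* and 4.25 for *Trf*, and for *Trf* the lower of the third pools was 1.84-fold above control 2. *Trf* shares 63.5% of its exon bases with *Gm20425* on the same strand, a gene that had 1 count over the 6 libraries, so reads in the shared part could not be assigned to one gene and the level of *Trf* is uncertain.

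*Ahsg* (ENSMUSG00000022868, GRCm38 chr16:22891277-22899449, plus strand) encodes fetuin-A, an inhibitor of calcification in plasma. Its levels were 5.35, 6.42 and 41.4 CPM in the controls and 2.40, 10.9 and 97.5 CPM after exposure, a ratio of 11.1. *Apoh* (ENSMUSG00000000049, GRCm38 chr11:108343354-108414396, plus strand) encodes beta-2-glycoprotein I, a phospholipid-binding plasma protein, with 0.996, 1.69 and 11.4 CPM in the controls and 0.709, 2.55 and 21.3 CPM after exposure. Its ratio of 10.98 was close to that of *Ahsg*. *Ahsg* overlaps an antisense gene over 2.8% of its exon bases and *Apoh* overlaps *Prkca* on the other strand over 1.9%, and whether the counting used strand is not given in the sources used here.

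*Serpina1a* (ENSMUSG00000066366, GRCm38 chr12:103853589-103863562, minus strand) encodes an alpha-1-antitrypsin, a protease inhibitor. It had the lowest level of the 10, with 14, 22 and 146 counts in the controls and 14, 47 and 287 counts after exposure. These are 0.367, 0.589 and 3.36 CPM, and 0.276, 1.03 and 7.47 CPM, and the ratio was 9.59. Of its 50-base windows, 57.6% also occur in other genes, most of them in the near-identical *Serpina1c*, so its value is uncertain. Reads were detected for its paralogues *Serpina1b* (1.02, 1.90 and 7.80 CPM in the controls, 0.965, 2.07 and 15.7 CPM after exposure) and *Serpina1d* (ratio 7.18), while *Serpina1e* was under 1 CPM in all libraries. *Serpina1c* had 0, 6 and 29 counts in the controls and 2, 12 and 55 counts after exposure.

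The apolipoproteins carry lipids. *Apoa2* (ENSMUSG00000005681, GRCm38 chr1:171225054-171226379, plus strand), a protein of high-density lipoprotein, had 7.97, 13.7 and 69.5 CPM in the controls and 3.57, 14.6 and 88.8 CPM in the exposed libraries, a ratio of 7.94. *Apob* (ENSMUSG00000020609, GRCm38 chr12:7977648-8016835, plus strand), the core protein of low-density lipoprotein, had 7.94, 17.98 and 59.3 CPM and 14.1, 8.92 and 102.4 CPM, a ratio of 6.60. *Apob* was the exception to an order of libraries that the other 9 genes kept, since APAP+IBU 1 was their lowest library but was not the lowest for *Apob*.

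*Apoa1* (ENSMUSG00000032083, GRCm38 chr9:46228580-46230466, plus strand), the main protein of high-density lipoprotein, differed least. Its levels were 31.7, 48.6 and 62.4 CPM in the controls and 10.1, 20.7 and 109.9 CPM after exposure, so that control 3 was 1.28-fold above control 2. The ratio of the third pool to the other pools was 1.55 among the controls and 7.12 among the exposed libraries. Neighbours in its cluster had other patterns. *Apoa4*, 10.2 kb away, had 10.5, 16.8 and 5.92 CPM in the controls and 3.25, 3.60 and 6.14 CPM after exposure, a ratio of 0.707, and *Apoc3*, 2.5 kb away, was under 1 CPM in all 6 libraries.

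The difference was larger among the exposed libraries than among the controls for each gene. Among controls, the ratio of the third pool to the mean of the other pools ran from 1.55 for *Apoa1* to 18.9 for *Alb*, and among exposed libraries from 7.12 for *Apoa1* to 20.4 for *Alb*. The median ratio over the 10 genes was 7.24 with both groups together, against 0.978 over all tested genes. APAP+IBU 3 lay above control 3 by 1.28-fold for *Apoa2* to 2.35-fold for *Ahsg*. Within the other 4 libraries, control 2 exceeded control 1 for 10 genes and APAP+IBU 2 exceeded APAP+IBU 1 for 9.

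Levels can be compared between genes only per length of transcript. Per kilobase of exon, *Alb* led in the third pools with a mean of 417.4 CPM per kb, followed by *Afp* (321.9) and *Apoa2* (147.4). In the other 4 libraries *Afp* led with 61.6 CPM per kb, and *Apoa1* (22.5), *Alb* (21.04) and *Apoa2* (18.6) were close to each other. *Serpina1a* was last in both, at 2.96 and 0.308 CPM per kb.

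The make-up of the plasma protein reads differed between libraries, and such shares need no scaling between libraries. *Alb* made up 9.26% of the summed counts of the 10 genes in control 1 (95% Wilson interval 8.70 to 9.85), 9.002% in control 2 (8.62 to 9.40) and 35.9% in control 3 (35.6 to 36.3). In the exposed libraries it made up 10.3% (9.69 to 10.9), 27.9% (27.2 to 28.5) and 40.5% (40.3 to 40.8). The intervals cover counting error only. The share was thus near 10% in 3 libraries, and APAP+IBU 2 stood with the third pools although its summed level of 375.5 CPM was below that of control 2, at 548.4 CPM.

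**Figure D2:**
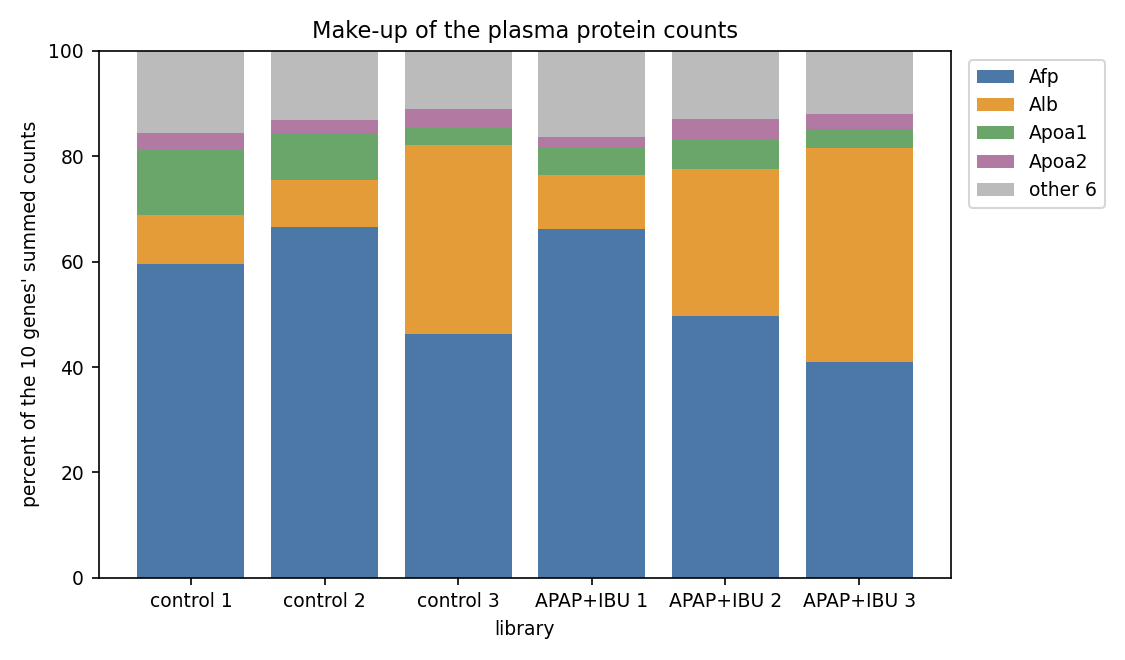
Percent of the summed counts of the 10 genes taken by *Afp*, *Alb*, *Apoa1*, *Apoa2* and the other 6 in each library. *Alb* takes 9.26%, 9.002% and 10.3% in control 1, control 2 and APAP+IBU 1, and between 27.9% and 40.5% in APAP+IBU 2 and the third pools.

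The ratio of *Alb* to *Afp* counts was 0.155, 0.135 and 0.778 in the controls and 0.156, 0.560 and 0.988 in the exposed libraries. *Afp* took between 41.0% of the reads of the 10 genes in APAP+IBU 3 and 66.5% in control 2. *Apoa1* took 12.4% in control 1 and between 3.24% and 3.52% in the third pools. *Apob* took 7.46% in APAP+IBU 1 and between 2.38% and 3.28% in the other 5 libraries.

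When the mean of the other pools of the same group was subtracted, the remainders in the third pools had similar shares of *Alb* and *Afp*. The rule that chose the members used the same contrast. *Alb* exceeded that mean by 654.3 CPM in control 3 and *Afp* by 629.9 CPM, which is 1.04 CPM of *Alb* for each CPM of *Afp*. In APAP+IBU 3 the differences were 1202.2 CPM and 1123.9 CPM, and the same quotient was 1.07. *Alb* was 43.0% and 42.4% of the summed difference and *Afp* 41.4% and 39.6%. *Apoa1* was the least alike by fold, at 1.46% in control 3 and 3.33% in APAP+IBU 3. For the other 9 genes, the share in APAP+IBU 3 over that in control 3 ran from 0.729 for *Apoa2* to 1.40 for *Trf*. Between control 2 and control 1 the difference was 25.7 CPM for *Alb* and 212.2 CPM for *Afp*, a quotient of 0.121, and between APAP+IBU 2 and APAP+IBU 1 it was 1.38. With 1 such pool per group, these values have no replicate check.

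Genes that the liver makes beside the 10 were read from other lists. Of 60 other secreted hepatocyte proteins, 51 were tested, and their median ratio of the third to the other pools was 7.82. Both of the third pools were above each other library for 39 of the 51 and at least 2-fold above for 35. *Itih2*, an inter-alpha-trypsin inhibitor heavy chain, had 1.83, 4.98 and 76.2 CPM in the controls and 1.99, 9.14 and 123.4 CPM after exposure, and its ratio of 22.3 was the highest of all tested genes. Genes with enough reads in the third pools alone could not pass the expression filter, so they are not in this ranking. *Serpina6*, which binds corticosteroids in plasma, had 7.73, 13.8 and 202.4 CPM and 6.05, 26.3 and 245.8 CPM. *Serpinf2*, the plasmin inhibitor, had a ratio of 13.0 and *C3*, the central complement component, one of 10.01.

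The list was not uniform. Among its most abundant genes, *Apoe* and *Serpinf1*, which are expressed in many tissues, had ratios of 0.890 and 0.906, with 196.9, 131.5 and 86.8 CPM of *Apoe* in the controls and 75.0, 80.1 and 128.5 CPM after exposure. Of the 60, 11 were under 1 CPM in every library, among them *Apoc3*, *Mbl2*, *F9*, *Orm1*, *Hrg* and *Hamp*. In the cluster of *Ahsg* on chromosome 16, *Kng1* (kininogen) had a ratio of 7.93 while *Fetub* and *Hrg* were under 1 CPM.

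Of 30 intracellular hepatocyte genes, 24 were tested, with a median ratio of 2.43, and both of the third pools were at least 2-fold above each other library for 11. *Cps1*, the first enzyme of the urea cycle, had 0.446, 0.562 and 4.01 CPM in the controls and 0.512, 0.873 and 16.3 CPM after exposure. *Fabp1*, a liver fatty acid-binding protein, had 8.26 CPM in control 3 and 8.35 CPM in APAP+IBU 3. *Hnf4a*, a transcription factor of liver, gut and kidney, had 2.31, 4.47 and 12.5 CPM and 6.58, 3.06 and 16.1 CPM, a ratio of 3.49. The transcription factor genes *Nr5a2* and *Cebpa* had ratios of 1.69 and 1.17. Enzymes of the mature liver such as *Tat*, *Tdo2*, *G6pc*, *Cyp7a1* and *Cyp8b1* were under 1 CPM in every library. Of the tested hepatocyte genes and members, 54 were at least 2-fold above each other library in both of the third pools. For these 54, the remainder over the group's other pools in APAP+IBU 3 was a median of 1.91-fold that in control 3. The range ran from 0.997 for *Fabp1* to 4.45 for *Cps1*. The 54 were picked on the contrast that the remainder measures. They were read in the same pools and are not replicates, so nothing is read from these values.

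**Figure D3:**
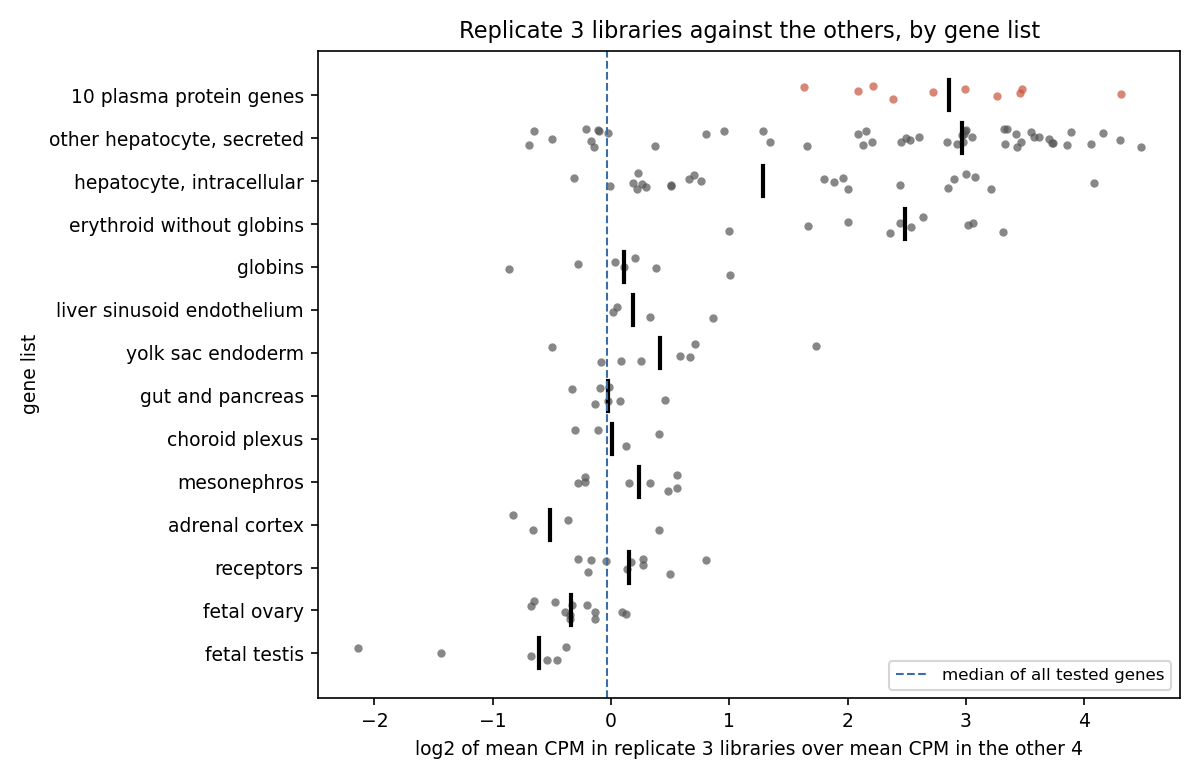
Log2 ratio of the mean CPM of the replicate 3 libraries to the mean CPM of the other 4 for each tested gene (points), by list, with the list median as a black bar and the median of all tested genes as a dashed line. The plasma protein genes, the other secreted hepatocyte genes and the erythroid genes without globins have medians of 2.86, 2.97 and 2.49, and the remaining lists apart from the intracellular hepatocyte genes have medians under 0.5.

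Erythroid genes other than globins were high in the same pools. Of 17 erythroid genes measured, 10 are not globins, and both of the third pools were above each other library for all 10, with a median ratio of 5.61. *Slc4a1*, the band 3 anion exchanger, had 51.0, 91.3 and 206.7 CPM in the controls and 21.7, 69.2 and 392.3 CPM after exposure. *Klf1*, an erythroid transcription factor, had 3.96, 2.76 and 11.5 CPM and 1.20, 3.56 and 21.8 CPM. The summed level of the 10 was 209.9, 349.3 and 666.4 CPM in the controls and 94.4, 263.7 and 1018.2 CPM after exposure. The 7 globins had a median ratio of 1.08, and both of the third pools were above each other library for 1 of them, *Hbb-bt*. Their summed level was 6875, 16922 and 10462 CPM in the controls and 3108, 5212 and 9454.5 CPM after exposure, so it was highest in control 2. *Hbb-y*, an embryonic beta-like globin, had 9479 CPM in control 2 and 5767 and 4939 CPM in the third pools. The part of erythroid cells in the values of the plasma protein genes was not tested.

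**Figure D4:**
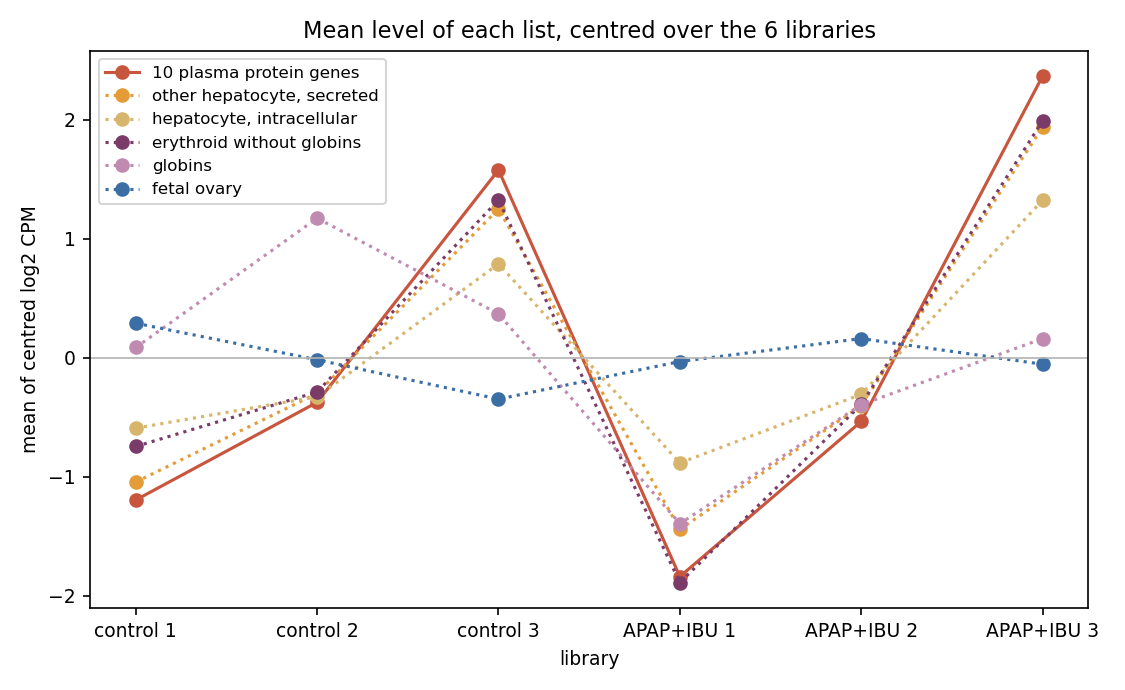
Mean over the genes of each list of log2 CPM centred on the gene's mean over the 6 libraries, by library. The plasma protein genes run from -1.84 in APAP+IBU 1 to 2.37 in APAP+IBU 3, the erythroid genes without globins and the secreted hepatocyte genes lie close to them, and globins peak in control 2.

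Markers of other tissues that make some of these proteins or lie near the gonad had lower ratios. The 8 yolk sac endoderm genes had a median ratio of 1.34, with both of the third pools above each other library for 3. *Cubn*, an endocytic receptor, had 7.92, 12.1 and 18.04 CPM in the controls and 12.5, 9.21 and 16.02 CPM after exposure, and *Soat2*, a cholesterol esterifying enzyme also made in liver, had a ratio of 3.32. The summed level of the 8 ranged from 238.5 to 288.4 CPM in the controls and from 201.3 to 238.5 CPM after exposure. The median ratio was 1.1405 for the 4 tested genes of liver sinusoid endothelium, with *Stab2* between 8.15 and 15.7 CPM and *Clec4g* under 1 CPM in every library. Both of the third pools were above each other library for 1 of the 4, *Lyve1*, at a ratio of 1.82. It had 4.48, 5.24 and 9.62 CPM in the controls and 4.79, 3.95 and 7.18 CPM after exposure.

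The median ratio was 1.18 for 8 mesonephros genes, 0.985 for 7 gut and pancreas genes, 1.007 for 4 choroid plexus genes and 0.7007 for 4 genes of adrenal cortex. *Ins1*, *Ins2*, *Gcg*, *Pdx1* and *Ptf1a* of the pancreas, *Otx2*, *Kl* and *Kcnj13* of the choroid plexus and *Cyp11b1* of the adrenal were under 1 CPM in all 6 libraries. The part of these tissues in the values of the plasma protein genes was not tested. Fetal ovary genes had a median ratio of 0.791. Both of the third pools were below each other library for 5 of the 12, and for 1364 of all 20167 tested genes. The 5 included *Stra8*, the gatekeeper of meiosis, with 332.8, 319.1 and 207.4 CPM in the controls and 212.3, 273.4 and 155.8 CPM after exposure.

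Receptors through which cells take up plasma proteins or lipids had lower ratios. The median ratio over 10 of them was 1.11, and both of the third pools exceeded the other libraries for 1, the transferrin receptor *Tfrc*. It had 141.2, 154.3 and 308.1 CPM in the controls and 216.1, 251.4 and 356.3 CPM after exposure, and it is abundant in erythroid precursors. *Lrp1*, an endocytic receptor for many ligands, lay between 257.3 and 335.6 CPM.

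Outside the lists, the genes whose levels ran most like the mean of the 10 were found by the root mean square distance of centred log2 CPM over the 6 libraries, among 15917 genes with a mean of at least 1 CPM. The nearest was *Kel*, the Kell blood group protein, at 0.131, with 5.08, 8.35 and 33.4 CPM in the controls and 3.21, 9.16 and 50.7 CPM after exposure. It was followed by *Ftcd*, an enzyme of histidine breakdown, at 0.150, the red cell membrane protein gene *Epb42* at 0.154, the gap junction gene *Gjb1* at 0.186 and *Gfi1b*, a transcription factor of erythroid cells and megakaryocytes, at 0.239. *Lipc* (hepatic lipase), *Redrum* (a long non-coding RNA), *Slc14a1* (a urea transporter), *Rhd* (an Rh blood group protein) and *Prodh2* (hydroxyproline dehydrogenase) lay between 0.252 and 0.298. The median distance of all candidates was 1.51. Among the 10 plasma protein genes *Apoa2* was nearest to their mean, at 0.269, and *Alb* was farthest, at 0.891.

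The study asked how in utero exposure to the drugs affects female reproductive development, and expression in the fetal ovary was among its measures. With its own fold and p-value limits, the paper reported genes lower and genes higher after exposure. None of the plasma protein genes passed the test between exposed and control ovaries. With the quasi-likelihood test of edgeR and p-values adjusted by Benjamini-Hochberg, 0 of the 10 passed an adjusted p of 0.05, 0 had an unadjusted p under 0.05, and DESeq2 called 0. Among all tested genes, 0.0% were called higher and 0.0% lower, with 1254 at an unadjusted p under 0.05 and 192 called by DESeq2. The control and exposed values overlapped for all 10 genes, where 4.78% of all tested genes had each exposed library above each control library and 5.92% below. With 3 libraries per group an exact permutation test cannot go below 0.1.

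The largest differences were those of *Ahsg*, at 1.05 on the log2 scale (SE 1.24, edgeR adjusted p = 0.781), *Serpina1a*, at 1.0 (SE 1.17, edgeR adjusted p = 0.779), and *Alb*, at 0.86 (SE 1.53, edgeR adjusted p = 0.855). The mean level of *Alb* was 254.6 ± 378.0 CPM in the controls and 462.8 ± 695.4 CPM after exposure (SD, n = 3 each). For *Afp* the means were 468.6 ± 378.8 and 530.7 ± 649.6 CPM, with a log2 difference of 0.18 (SE 0.91, edgeR adjusted p = 0.951). The log2 differences of *Ttr* and *Apoa1* were -0.03 and -0.02, and those of *Trf*, *Apoa2*, *Apob* and *Apoh* lay between 0.23 and 0.79. The SE was between 0.75 and 1.53 for the 10 genes in this fit, which has no term for the replicate number. The median over the 10 was 0.45, against -0.01 over all tested genes, and among the 75 other tested hepatocyte genes, 0 were called, with 2 at an unadjusted p under 0.05 (*Apoa4* and *Apoc1*) and 0 by DESeq2.

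Without the third pools the spread was smaller, and the direction changed for *Afp*, *Trf*, *Apoa2* and *Apob* but not for the others. In replicates 1 and 2 only, the log2 difference was -1.36 for *Apoa1* (SE 0.33, edgeR adjusted p = 0.0239) and it was the 1 member called, beside 14.2% of all tested genes called higher and 12.9% called lower in that comparison. *Apoa1* stood at 31.7 and 48.6 CPM in controls 1 and 2 and at 10.1 and 20.7 CPM in APAP+IBU 1 and 2. *Ttr* differed by -1.05 (SE 0.34, edgeR adjusted p = 0.0601), *Afp* by -0.71, *Trf* by -0.67, *Apoa2* by -0.25 and *Apob* by -0.14, whereas *Alb*, *Serpina1a*, *Apoh* and *Ahsg* were between 0.18 and 0.78. Of the other hepatocyte genes 5 were called, *Apoa4* at -1.97, *Apoe* at -1.06, *Apoc1* at -0.91, *Serpinf1* at -0.53 and *F5* at 1.12 on the log2 scale.

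**Figure D5:**
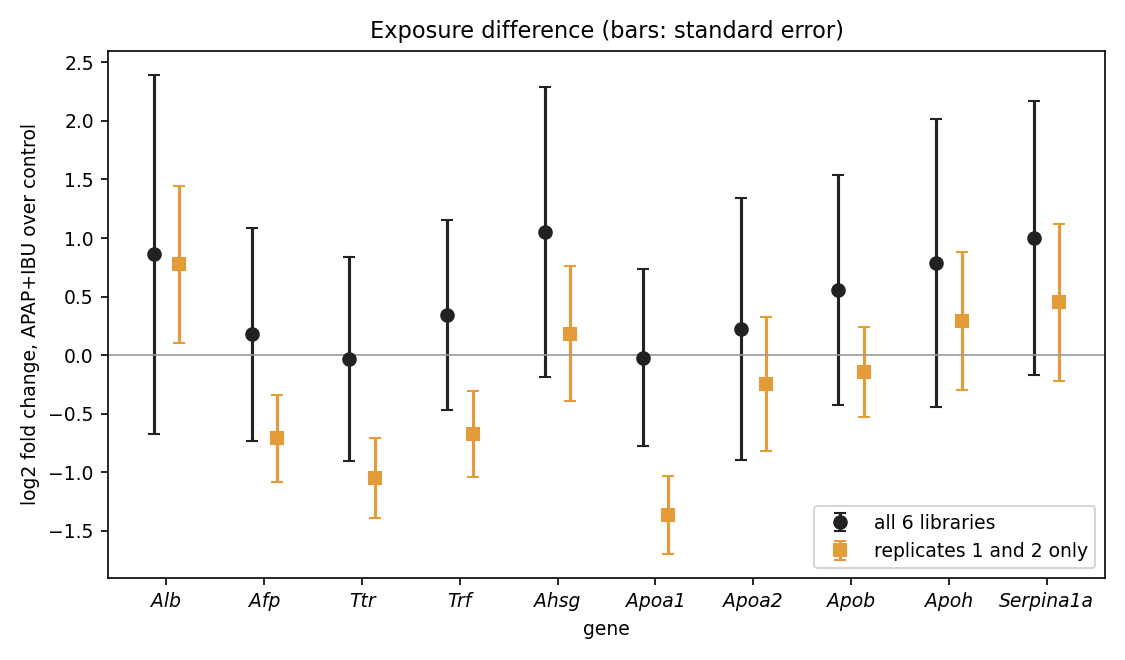
Log2 fold change of APAP+IBU over control (y axis) for each plasma protein gene, with standard errors, from all 6 libraries (circles) and from replicates 1 and 2 only (squares). The bars of all 6 libraries cross 0 for 10 of 10 genes, and *Apoa1* falls to -1.36 when the third pools are left out.

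Leaving out 1 library turned the direction of each of the 10 genes in at least 1 of the 6 fits. Without APAP+IBU 3 the log2 difference of *Alb* was -2.06 and without control 3 it was 3.67, and for *Afp* these were -1.61 and 1.04. In these fits 0 of the 10 genes were called.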

How the data were processed

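RNA of 6 pools of 13.5 dpc ovaries, 3 control and 3 APAP+IBU, was sequenced. Per the labels and methods, the authors prepared stranded polyadenylated libraries, demultiplexed with bcl2fastq 2.17.1.14, mapped reads to mm10 with TopHat2 2.0.14 and Bowtie2 2.1.0, and counted them with HTSeq 0.6.1. The deposited values are raw counts per gene, without normalisation, and the strand setting is not given in the sources used here.

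From these counts, edgeR 4.0.16 (R 4.3.3) with TMM normalisation and its expression filter tested 20167 of 48709 genes by the quasi-likelihood test with Benjamini-Hochberg adjustment at 0.05. Log2 CPM used a prior count of 1. DESeq2 1.42.0, other scalings and filters, the replicate number as a block and leaving out libraries were alternatives. Symbols (48349 genes), lengths and positions came from GENCODE M21 on GRCm38, the assembly of mm10, and promoters from RefSeq. The tests were tried on simulated counts with the same spread for all genes and no shift of the third pools. That trial does not cover the spread between the pools seen here. Pools were separate, so p-values measure the spread between pools. Members, lists and alternatives were chosen with earlier results of these data known. Named are the members, the most abundant genes of each list (up to 6 for hepatocyte lists and 4 for others), markers near 0, and the 10 genes nearest to the members' mean. Other list genes and cluster neighbours with values, *Foxl2*, *Amh*, *Slc4a1*, *Klf1*, *Cubn*, *Soat2*, *Kng1*, *Serpina1b*, *Serpina1c*, *Serpina1d*, *Apoa4*, *Apoc1* and *F5*, were named after their values were seen. *Ahsp* and *Fcn3* had no match. Some list genes that the rule covers are not reported here.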

Additional observations from a re-analysis of the deposited data

How the results depend on the processing

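The count of plasma protein genes called for exposure was 0 with edgeR under 3 other scalings, 2 other filters, DESeq2 and the replicate block, and 0 to 0 on leaving out each library. It was 1 in replicates 1 and 2 only. Calls among the other hepatocyte genes were 0 in the same settings, 5 in replicates 1 and 2 only and 0 to 1 on leaving out each library, the 1 being *Apoa4* (edgeR adjusted p = 0.0436) without control 3. Over all genes, 0 calls became 120 with all genes of at least 1 count, 192 with DESeq2, 2 with the replicate block, 5607 in replicates 1 and 2 only, and 0 to 1064 on leaving out each library, the highest without control 3.

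Per the methods, each independent experiment held dams of both conditions, but the labels do not tie replicate numbers to experiments. The replicate numbers were not taken to pair the pools. Over all genes, deviations of same-numbered libraries correlated at -0.193, 0.008 and -0.093, which does not settle whether pools of 1 experiment share a number. With the replicate block the SE of the plasma protein genes was 0.295 for *Alb* to 0.479 for *Apoa1*, and the members were chosen for a difference between replicate numbers, which the block takes up. With the replicate block, log2 differences reversed for *Afp* (-0.24), *Trf* (-0.16) and *Apoa2* (-0.21), and in replicates 1 and 2 only for *Afp* (-0.71), *Trf* (-0.67), *Apoa2* (-0.25) and *Apob* (-0.14). Leaving out each library gave log2 differences from -2.06 to 3.67 for *Alb*, -1.61 to 1.04 for *Afp*, -1.82 to 0.70 for *Ttr*, -1.29 to 0.92 for *Trf*, -1.45 to 2.65 for *Ahsg*, -1.65 to 0.46 for *Apoa1*, -1.77 to 1.72 for *Apoa2*, -1.33 to 1.69 for *Apob*, -1.56 to 2.60 for *Apoh* and -1.18 to 2.60 for *Serpina1a*. The cause was not tested.

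The median log2 ratio of the third to the other pools was 2.86, and 2.43 to 3.11 on leaving out each library, 2.44 in controls alone and 3.22 in APAP+IBU alone. The mean share of *Alb* in the third pools was 38.2%, and 42.7% of the remainder over the other pools of the group. With 1 such pool per group, neither value has a replicate check.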

Other observations

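A few genes known from the prostate were seen in the third pools and were named after their values were seen. *Pbsn* (probasin) had 0, 0 and 86 counts in the controls and 0, 0 and 90 counts after exposure. *Tgm4*, the prostate transglutaminase, had 12, 16 and 186 counts in the controls and 26, 9 and 186 counts after exposure. *9530053A07Rik* had 0, 1 and 304 counts and 4, 1 and 304 counts, and *9530002B09Rik* had 0, 0 and 27 counts and 0, 0 and 23 counts. These counts were nearly equal in control 3 and APAP+IBU 3. In CPM, control 3 and APAP+IBU 3 had 1.98 and 2.34 for *Pbsn* and 4.28 and 4.84 for *Tgm4*. They had 6.997 and 7.907 CPM for *9530053A07Rik* and 0.621 and 0.598 CPM for *9530002B09Rik*. The ratio of APAP+IBU 3 to control 3 in CPM was 1.13 for *Tgm4* and 1.83 for *Alb*. Their part in the values of the plasma protein genes was not tested.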
